A study of Mus musculus with 12 samples.

Results

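Reelin is a large protein that some neurons secrete into the matrix around them, and in the developing cortex it tells migrating neurons where to stop. It binds 2 receptors of the LDL receptor family, VLDLR and ApoER2 (the product of Lrp8), and the cells that carry a receptor pass the signal on by phosphorylating the adaptor DAB1. Loss of the ligand, of both receptors or of the adaptor disturbs cortical layering in the same way, and the ligand of the early cortex comes mainly from the Cajal-Retzius neurons of the marginal zone, with interneurons taking over later. The 4 genes Reln, Dab1, Vldlr and Lrp8 were picked by symbol from the 55335 genes listed in the data, and each matched 1 gene. They were measured by single-nucleus RNA sequencing in the forebrain of newborn mice at postnatal day 1 (P1), with 1 library for each of 12 mice. The 8 WT libraries came from 5 males and 3 females, and the 4 Het libraries, heterozygous for a frameshift allele of the neuronal transcription factor gene Myt1l (MYT1L S710fsX, carried in the germline and so in every cell), came from 3 males and 1 female. The labels give the forebrain as the tissue and no treatment, and do not tie the mice to litters.

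After filtering, 94646 nuclei were left, 55232 WT and 39414 Het, with 4477 to 10875 nuclei and 9.75e+06 to 2.42e+07 UMIs (unique molecular identifiers, each standing for 1 captured RNA molecule) per library. The median nucleus of a library held 1699 to 2053 UMIs. No cell barcode was shared between libraries. The nuclei fell into 48 clusters, of which 27 were named from marker genes as 19 classes and hold 63.2% of the nuclei. The other 21 clusters stayed unnamed and are given by their leading genes. The 4 Reelin pathway genes and Myt1l were left out of the genes used for clustering and naming. Levels are CPM (UMIs of the gene per 1000000 UMIs of all nuclei of a class in a library), given as mean ± SD over libraries with at least 10 nuclei of the class. The libraries differed in makeup: striatal D1-like neurons made up 0.473% of the nuclei of WT 4 and 9.99% of Het 2, and the mean share was 7.32% ± 2.10 in Het (n = 4) and 4.44% ± 1.90 in WT (n = 8), which did not pass the exact permutation test over the 9 shares and levels compared in this way (p = 0.0303, adjusted 0.136). Myt1l RNA itself was at 1269 to 1609 CPM in the WT libraries and 1526 to 1646 CPM in the Het libraries over all nuclei, and edgeR did not call it (log2 difference 0.11, adjusted p = 0.554). It was not called within classes either, though its estimate was 0.29 over excitatory nuclei (95% interval 0.12 to 0.46, adjusted p = 0.248), 0.33 in L6b/subplate and 0.26 in upper-layer ExN-like nuclei, 0.17 in MGE InhN-like and 0.59 in astroglia/radial glia-like nuclei, all with an unadjusted p under 0.05 and higher in Het. Over excitatory nuclei the Het libraries, at 1778 to 2140 CPM of Myt1l, all lay above the WT libraries, at 1355 to 1688 CPM. The same held in upper-layer ExN-like nuclei (1974 to 2239 against 1378 to 1880 CPM). How much RNA the frameshift allele gives was not measured here, so the Myt1l level does not check the genotype labels.

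On GRCm38 with the GENCODE M21 annotation, Reln (ENSMUSG00000042453.14) lies on the minus strand at chr5:21884454-22344702 and spans 460 kb. Dab1 (ENSMUSG00000028519.16) is the longest of the 4, with 1125 kb on the plus strand at chr4:103619359-104744844. Lrp8 (ENSMUSG00000028613.15) lies on the same chromosome and strand at chr4:107802261-107876840, 74.6 kb, and Vldlr (ENSMUSG00000024924.14) at chr19:27216484-27254231, 37.7 kb, on the plus strand. Nuclear RNA is rich in introns, so long genes collect more UMIs, and levels of different genes are set side by side only per kb of gene length. Reln is overlapped by 7 annotated genes, of which 3 are on its own strand and 4, Gm10475 among them, on the other. Dab1 overlaps Gm12717 on its own strand and Gm12719 on the other, Lrp8 overlaps the antisense genes Lrp8os1 and Lrp8os2, and Vldlr overlaps none. No source used here gives whether the counting used strand, so reads of a gene and of an antisense partner may be mixed.

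The promoter of the ligand gene is printed because its window of 300 bases holds the most CG dinucleotides of the windows of the 4 genes, by 1 over a Dab1 window. These are the 250 bases before the Reln start, chr5:22344706-22344955 on the minus strand of GRCm38.p6, from RefSeq, 5′ to 3′ with every CG in capitals.

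Reln: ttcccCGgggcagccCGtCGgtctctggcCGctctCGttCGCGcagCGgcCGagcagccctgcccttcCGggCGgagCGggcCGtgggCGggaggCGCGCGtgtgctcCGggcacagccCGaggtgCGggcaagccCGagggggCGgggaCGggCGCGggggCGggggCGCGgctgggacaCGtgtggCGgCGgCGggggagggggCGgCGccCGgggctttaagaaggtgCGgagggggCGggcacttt

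These 250 bases hold 37 CG dinucleotides, against 40 in the same stretch of that Dab1 window. With the 50 bases after the start, the 300-base window is 80.7% G or C and holds 47 CG, against a median of 52.7% and 7 CG over all 32851 promoter windows of that length. RefSeq lists 8 windows for the 4 genes. The 2 Dab1 windows are at 77.3% GC with 46 CG and 57.3% with 12, the 3 Lrp8 windows at 62.7% with 21, 55.0% with 5 and 54.0% with 4, and the 2 Vldlr windows at 68.0% with 23 and 43.0% with 8. AAGTT, the core motif that MYT1 family zinc fingers bind, occurred on either strand in 39.3% of all windows and in 1 of the 8, the first of Lrp8, where its reverse complement begins 130 bases before the start. A match to these letters is not evidence of binding.

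Reln RNA was concentrated in one rare class. Cajal-Retzius-like nuclei, led by Ndnf, Trp73, Ebf3 and Ebf2 with 8 of 8 markers raised, numbered 803, or 0.848% of nuclei, and held 42.8% of all Reln UMIs. Their level was 17379 ± 2696 CPM (n = 12 libraries), which is log2 3.17 above the next class (11 of 11 libraries, exact sign-flip permutation test over neighbouring classes, adjusted p = 0.0166). The median Cajal-Retzius-like nucleus held 47 Reln UMIs, the middle 50% of these nuclei between 20 and 75, and 84.2% held 10 or more. In WT the lowest library was at 10296 CPM, the median at 17565 and the highest at 19953, and the 4 Het libraries were at 16982, 20386, 19847 and 16470 CPM. The genotypes overlapped, and the low WT value came from WT 8, with 40 such nuclei (WT 4, with 39, was at 17407 CPM).

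The next 4 classes had means between 1110 and 2361 CPM. Olfactory bulb projection neuron-like nuclei (mitral and tufted type, 11 libraries) were at 2361 ± 899 CPM, but 10 of these libraries lay between 1690 and 3341 CPM and Het 3, with 46 such nuclei, was at 83.7 CPM. CGE-derived interneuron (InhN)-like nuclei were at 1250 ± 297 CPM, striatal D1-like neurons, the spiny projection neurons of the direct pathway, at 1228 ± 167 CPM, and MGE InhN-like nuclei at 1110 ± 129 CPM (n = 12 each). Neighbours among these 4 did not differ beyond their spread in the order test. Because they are more numerous than Cajal-Retzius-like nuclei, D1-like neurons held 17.4% of all Reln UMIs and MGE InhN-like nuclei 14.9%.

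Inside the MGE InhN-like class Reln separated the clusters. The cluster led by Elfn1, Dgkg and Grik1, with Grin3a and Npas1 also leading, was at 2249 CPM (2002 to 2779 over 12 libraries), the cluster led by Nxph2, Nxph1 and Lhx6 at 225 CPM (140 to 289), and the small cluster led by Nos1, Tacr1 and Npy with Sst and Chodl at 309 CPM (121 to 502). The first was log2 3.31 ± 0.25 (SD) above the second, in 12 of 12 libraries. Among D1-like neurons the cluster led by Strip2, Tac1, Lypd1 and Oprm1, genes of striatal patch and peptide-rich neurons, was at 2196 CPM and the main cluster, led by Ebf1, at 1029 CPM, higher in 11 of 11 libraries. D2-like neurons of the indirect pathway had far less Reln, 227 ± 63.0 CPM, a log2 difference of 2.45 ± 0.41 (SD) from D1-like neurons seen in 12 of 12 libraries.

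The named classes of cortical excitatory neurons (ExN), which receive the signal, had little Reln. Upper-layer ExN-like nuclei were lowest of all classes at 34.7 CPM, and deep-layer ExN-like nuclei ranged from 35.0 to 67.3 CPM. At an equal depth of 800 UMIs per nucleus, 94.1% ± 4.83 of Cajal-Retzius-like nuclei had at least 1 Reln UMI, 52.4% of D1-like, 36.9% of CGE InhN-like and 32.6% of MGE InhN-like nuclei (97.5%, 76.2%, 48.7% and 43.8% without thinning, at median depths of 2673, 2266, 1618 and 1876 UMIs). Endothelial-like nuclei, which should lack the gene, were at 4.50% (9.31% unthinned, median depth 1844), above upper-layer and deep-layer ExN-like nuclei at 2.497% and 3.89%, whose shares are read as background. L6b/subplate ExN-like nuclei were at 5.32% (12.7% unthinned, median depth 2977), close to that level. Microglia-like nuclei averaged 328 ± 622 CPM over 9 libraries, with Het 4 (19 nuclei) at 1963 CPM and the others between 21.9 and 356 CPM, and 1 nucleus of the class held 75 Reln UMIs.

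**Figure D1:**
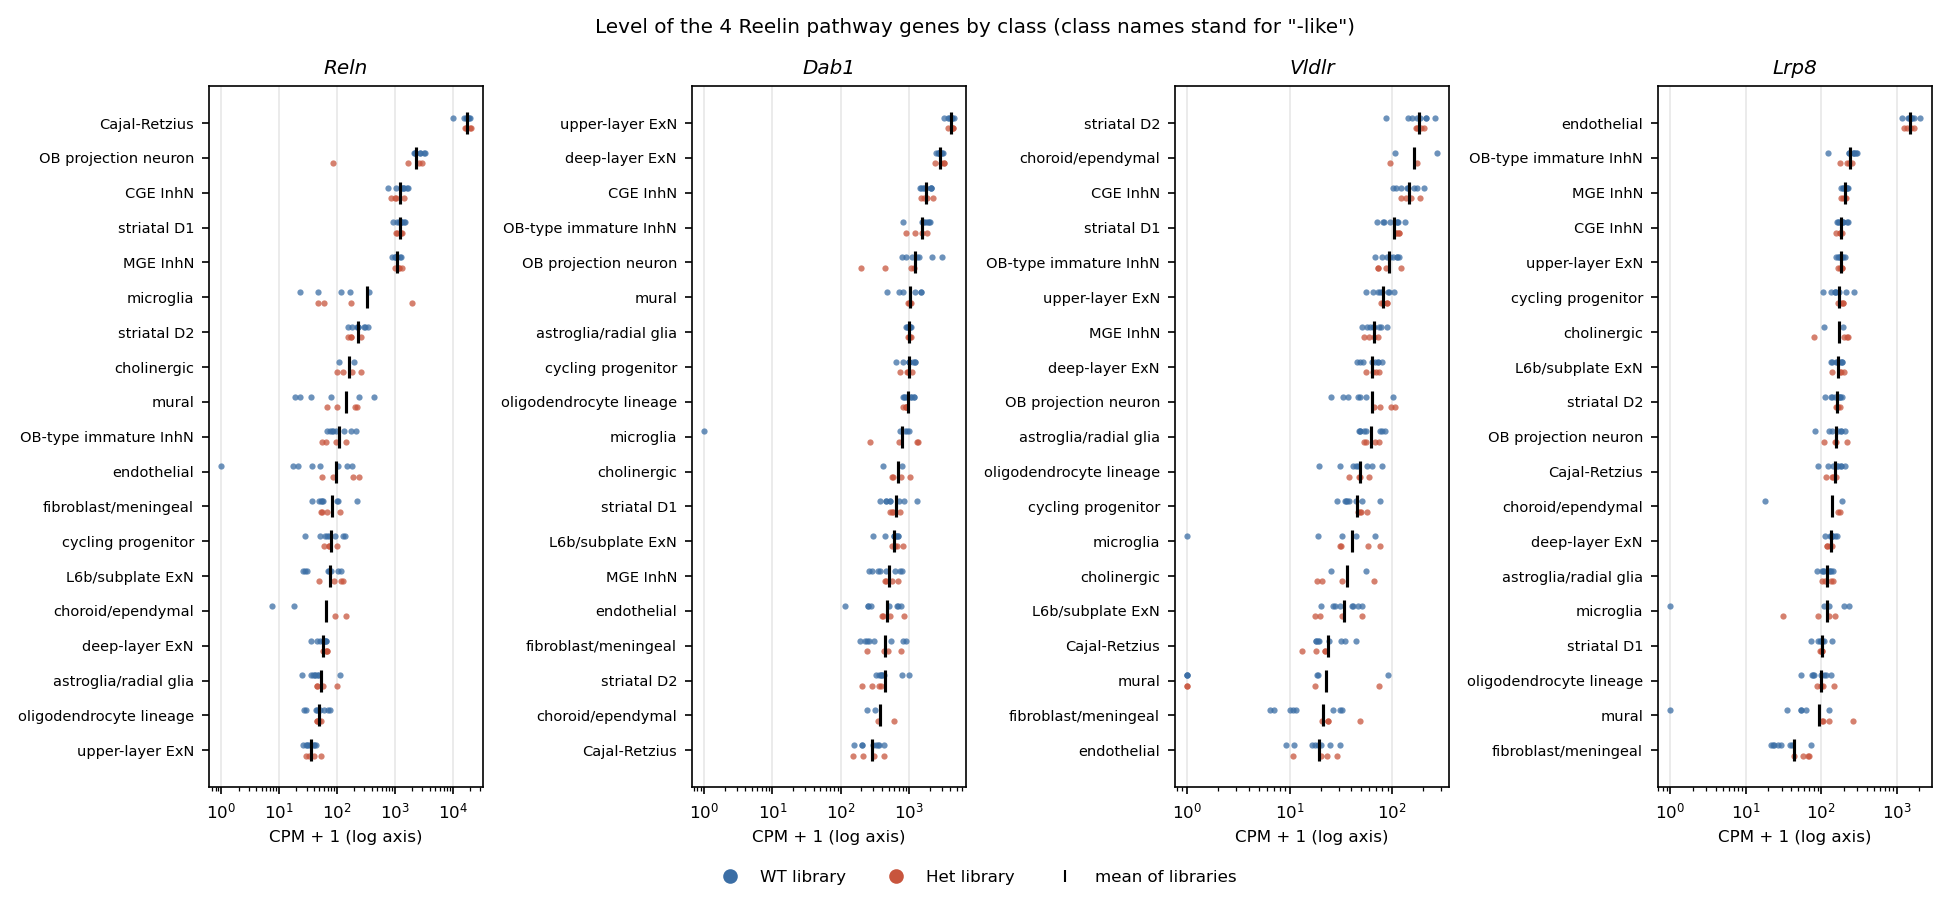
Levels of the 4 genes in each named class (rows, ordered by mean), as CPM + 1 on a log axis, with 1 point per library with at least 10 nuclei of the class (WT blue, Het red) and a black bar for the mean of libraries. Reln peaks in Cajal-Retzius-like nuclei at 17379 CPM, Dab1 in upper-layer ExN-like nuclei at 4019 CPM, Vldlr in striatal D2-like neurons at 180 CPM and Lrp8 in endothelial-like nuclei at 1523 CPM, and WT and Het points overlap in the leading class of each gene.

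The makeup of these sources was compared between genotypes as the share of a library's Reln UMIs that lay in each class. Cajal-Retzius-like nuclei held 40.7% ± 7.21 in WT (n = 8) and 44.2% ± 9.27 in Het (n = 4; exact permutation test, adjusted p = 0.641), a difference of 3.52 percentage points that was 0.052 without Het 3, 1.66 without WT 8 and 7.34 without Het 2. CGE InhN-like nuclei held 6.14% ± 1.73 in WT and 4.38% ± 1.81 in Het (exact adjusted p = 0.271). MGE InhN-like nuclei held 14.1 to 28.3% in WT and 12.4%, 14.0%, 12.3% and 12.2% in the Het libraries, so the genotypes did not overlap, yet the means of 17.1% ± 4.70 and 12.7% ± 0.847 did not pass the exact permutation test (adjusted p = 0.267). WT 4, which held few striatal nuclei, supplied the 28.3%. Without it the difference was 2.79 percentage points in the same direction and did pass (exact permutation, adjusted p = 0.0242). The MGE InhN-like share of nuclei averaged 5.25% ± 0.610 for Het and 6.93% ± 1.11 for WT libraries (exact permutation p = 0.0242, adjusted 0.136), and their Reln level was 1172 ± 128 CPM in Het and 1079 ± 125 CPM in WT. D1-like neurons held 14.6% ± 6.48 of the Reln UMIs of WT libraries and 20.2% ± 7.16 of those of Het libraries (exact permutation p = 0.210), next to the difference in their share of nuclei given above. The part that the makeup of the libraries has in these shares was not tested.

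**Figure D2:**
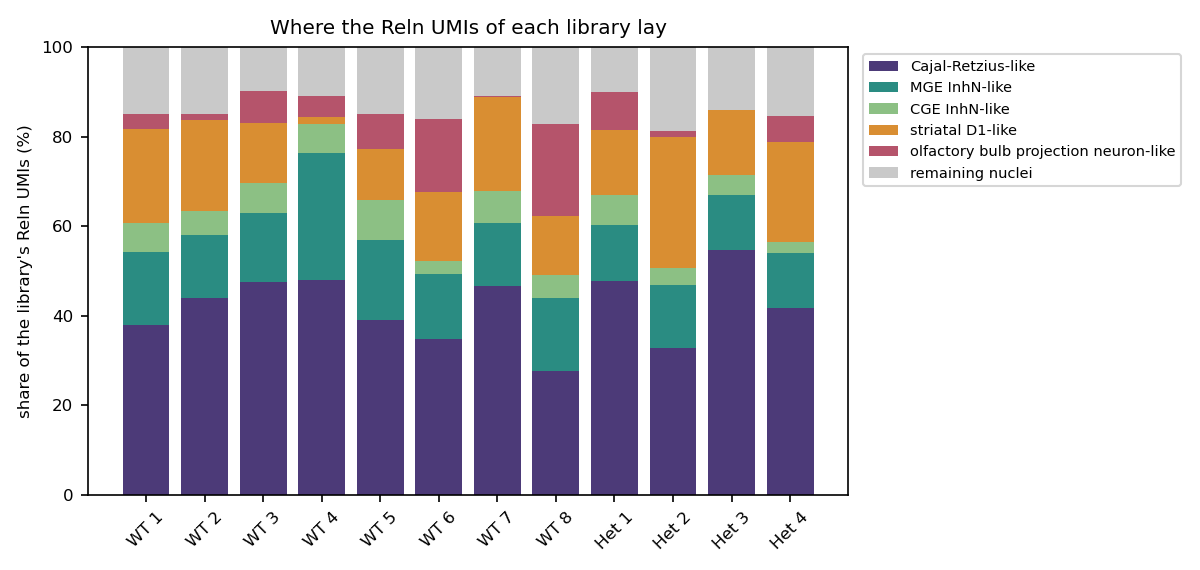
Share of the Reln UMIs of each library (bars, 8 WT then 4 Het) that lay in the classes shown by colour, stacked to 100%. The Cajal-Retzius-like part runs from 27.6% in WT 8 to 54.6% in Het 3, the striatal D1-like part from 1.62% in WT 4 to 29.3% in Het 2, and the MGE InhN-like part is largest in WT 4.

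The share of nuclei that were Cajal-Retzius-like averaged 0.818% ± 0.110 over WT and 0.919% ± 0.221 over Het libraries (exact permutation p = 0.305, adjusted 0.458), with Het 1, 3 and 4 at 0.993 to 1.05% and Het 2 at 0.590%. Without Het 2 the difference was 0.211 percentage points, which did not pass over the same 9 shares and levels either (exact permutation p = 0.0182, adjusted 0.136). Over all nuclei Reln was at 361 to 542 CPM in WT, median 424, and at 521, 413, 498 and 523 CPM in the Het libraries, which overlaps (432 ± 52.0 against 489 ± 51.8, exact permutation p = 0.109, adjusted 0.196). With Cajal-Retzius-like nuclei left out the means were 259 ± 38.8 and 274 ± 33.2 CPM (exact permutation p = 0.560, adjusted 0.604). A sum over nuclei cannot tell fewer source cells from less RNA per cell, so the class values stand beside it.

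Of the receptors, Lrp8 was highest outside the neurons. Endothelial-like nuclei were at 1523 ± 226 CPM and held 11.5% of all Lrp8 UMIs in 1.30% of nuclei, log2 2.66 above the next class in 12 of 12 libraries (exact sign-flip permutation test, adjusted p = 0.0111). WT libraries ran from 1184 through a median of 1542 to 2007 CPM, and the Het libraries were at 1721, 1555, 1357 and 1235 CPM, inside the WT range. At 800 UMIs, 63.5% ± 6.65 of endothelial-like nuclei had an Lrp8 UMI (83.3% unthinned), against 2.90% of fibroblast/meningeal-like and 5.52% of microglia-like nuclei. Mural-like nuclei, the other cells of the vessel wall, were at 92.3 CPM.

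Lrp8 was lower in neurons, in small steps from class to class. Olfactory-type immature InhN-like nuclei were at 239 CPM, MGE InhN-like at 205 ± 14.0, CGE InhN-like at 185 and upper-layer ExN-like at 181, with no neighbouring pair passing the order test from there down to fibroblast/meningeal-like nuclei at 42.0 CPM. Classes farther apart in this order did separate, as MGE InhN-like nuclei at 183 to 224 CPM lay above D1-like neurons at 73.2 to 139 CPM with no overlap between libraries. An unnamed cluster led by Sema3c, with Eomes, Unc5d and Svet1 (genes of cortical intermediate progenitors and newborn upper-layer neurons), had a higher mean than any named neuronal class at 607 ± 79.6 CPM, log2 1.72 ± 0.23 (SD) over upper-layer ExN-like nuclei in 12 of 12 libraries. Of the 2 upper-layer clusters, the one led by Adamts2, with Cux2 and Bcl6, was at 232 CPM and the one led by Rorb and Inhba at 144 CPM, a difference present in 12 of 12 libraries. The Tac1 and Oprm1 cluster of D1-like neurons had the opposite pattern to its Reln, with 36.8 CPM of Lrp8 against 112 CPM in the main D1-like cluster, lower in 11 of 11 libraries.

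Vldlr, at 69.7 CPM over all nuclei, had its own order of classes. Among named classes D2-like neurons led at 180 ± 42.7 CPM, CGE InhN-like nuclei were at 145 ± 31.2 and D1-like neurons at 104 CPM. CGE exceeded D1 in 10 of 12 libraries (log2 0.45, exact sign-flip permutation test, adjusted p = 0.0398). An unnamed cluster of 97 nuclei led by Cd24a was higher, at 194 ± 73.4 CPM in 4 libraries. Choroid/ependymal-like nuclei were at 161 CPM in the 4 libraries that held enough of them. Upper-layer ExN-like nuclei were at 80.1 CPM, and at the low end stood Cajal-Retzius-like at 22.7, mural-like at 21.5, fibroblast/meningeal-like at 20.02 and endothelial-like nuclei at 18.3 ± 6.97 CPM. At 800 UMIs per nucleus 6.03% of upper-layer, 4.99% of deep-layer and 2.62% of L6b/subplate ExN-like nuclei had a Vldlr UMI (14.6%, 13.4% and 9.08% unthinned), and the endothelial-like and microglia-like shares were 1.21% and 2.32%, so the L6b/subplate share is close to background.

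The balance of the receptors within a library was taken as log2 of Vldlr over Lrp8 UMIs, with 0.98 added for the greater length of Lrp8 so that 0 stands for equal levels per kb. On that per-kb scale Vldlr was the higher in all 12 libraries of D2-like (1.14 ± 0.49), D1-like (1.02 ± 0.39) and CGE InhN-like nuclei (0.61 ± 0.31), and most so in the Tac1 and Oprm1 cluster (2.20 ± 0.58, 11 of 11 libraries). Without the length term the ratio was 0.16 in D2-like and 0.04 in D1-like nuclei, with more Vldlr UMIs in 8 of 12 libraries of each. In CGE InhN-like nuclei it was −0.37, with more Vldlr UMIs in 1 of 12. That UMIs grow in proportion to gene length was not tested. Per kb, deep-layer ExN-like nuclei were at −0.11 ± 0.33 and upper-layer ExN-like nuclei at −0.20 ± 0.26. Vldlr was the higher in 4 and in 1 of 12 libraries, so most libraries of both had more Lrp8 per kb. MGE InhN-like (−0.68 ± 0.25), L6b/subplate ExN-like (−1.38 ± 0.50) and Cajal-Retzius-like nuclei (−1.64 ± 0.49) had more Lrp8 per kb in all 12 libraries, and endothelial-like nuclei were farthest, at −5.23 ± 0.61. Between genotypes the ratio of UMIs, without the length term, averaged over all nuclei −1.42 ± 0.098 for WT libraries and −1.24 ± 0.154 for Het libraries (exact permutation p = 0.0364, adjusted 0.0727 over 2 tests), and over excitatory nuclei −1.25 ± 0.179 and −1.16 ± 0.036 (exact permutation p = 0.366). The first difference passed at adjusted 0.0242 when WT 8 or Het 1 was left out of the exact permutation test, with values of 0.21 and 0.25. The sum over all nuclei mixes classes whose ratios of UMIs differ, as −1.18 in upper-layer ExN-like and 0.04 in D1-like nuclei. D1-like neurons averaged 7.32% of Het and 4.44% of WT nuclei. The part that this makeup has in the difference was not tested.

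**Figure D3:**
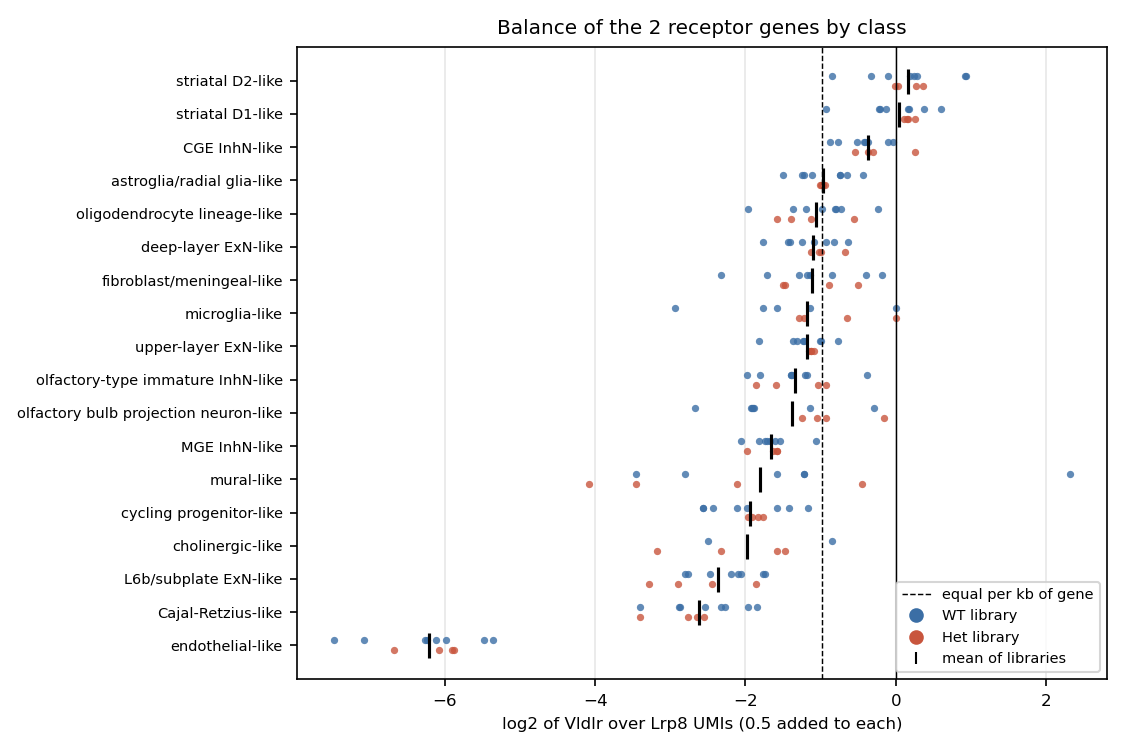
Log2 of Vldlr over Lrp8 UMIs (0.5 added to each) in every named class except choroid/ependymal-like, which had too few libraries. Each library with at least 10 nuclei of the class is 1 point (WT blue, Het red), with a black bar for the mean of libraries. A solid line at 0 stands for equal UMIs and a dashed line at −0.98 for equal levels per kb of gene. Striatal D1-like and D2-like neurons sit right of the dashed line, upper-layer and deep-layer ExN-like nuclei close to it at −1.18 and −1.09, and endothelial-like nuclei far to the left.

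Dab1, the adaptor, marked the receiving neurons of the cortical plate. Upper-layer ExN-like nuclei were at 4019 ± 359 CPM and deep-layer ExN-like nuclei at 2844 ± 274 CPM (n = 12), log2 0.50 apart, and deep-layer nuclei exceeded CGE InhN-like nuclei, the next class at 1778 CPM, by log2 0.69. Both steps held in 12 of 12 libraries (exact sign-flip permutation test, adjusted p = 0.0111). Upper-layer WT libraries ran from 3213 through a median of 4071 to 4444 CPM, and the Het libraries were at 4366, 4212, 4298 and 3748 CPM, within the WT range. The lowest mean of the named classes was that of the ligand's own main source, though the order test did not separate it from the next class. Cajal-Retzius-like nuclei had 286 ± 99.2 CPM of Dab1, log2 3.87 ± 0.56 (SD) below upper-layer ExN-like nuclei in 12 of 12 libraries. L6b/subplate ExN-like nuclei, the earliest-born cortical neurons, were also low at 602 ± 129 CPM, log2 2.76 ± 0.41 (SD) below upper-layer nuclei in 12 of 12 libraries.

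Dab1 differed within the upper layers more than between upper and deep layers. The cluster led by Adamts2, with Cux2 and Bcl6, was at 6334 CPM (5780 to 7150) and the Rorb and Inhba cluster at 2472 CPM (2084 to 2804), log2 1.36 ± 0.15 (SD) apart in 12 of 12 libraries. ADAMTS2, like ADAMTS3, is a protease that cleaves Reelin. Unnamed clusters reached similar values, 6733 CPM in the cluster led by Nr3c2 and Mndal (6 libraries), 4167 CPM in that led by Tshz2 and Ntf3 and 4129 CPM in that led by Tfap2d and Nrp2, while the cluster led by Nr4a2 and Oprk1 was at 277 CPM. Glia had an intermediate level, with astroglia/radial glia-like nuclei at 990 ± 53.9 CPM. At 800 UMIs, 89.1% of upper-layer, 82.01% of deep-layer and 31.9% of L6b/subplate ExN-like nuclei had a Dab1 UMI (97.8%, 93.0% and 60.4% unthinned, at median depths of 1946, 2221 and 2977). Endothelial-like nuclei were at 17.8% and microglia-like nuclei at 22.0% (SD 11.1), and the 14.8% of Cajal-Retzius-like nuclei is below both. Fibroblast/meningeal-like nuclei, at 14.2%, and choroid/ependymal-like nuclei, at 14.6%, were as low. Whether these Dab1 shares are background was not tested. The thinned share of nuclei with a UMI was also compared between genotypes for Reln in the Cajal-Retzius-like, MGE and CGE InhN-like classes and for the other 3 genes in the excitatory classes, and none of the 12 exact permutation tests passed (smallest adjusted p = 0.571).

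Per kb of gene and over all nuclei, Lrp8 was at 2.39 CPM per kb, Dab1 at 1.86, Vldlr at 1.85 and Reln at 0.980. The highest class means on that scale were 37.8 for Reln in Cajal-Retzius-like, 20.4 for Lrp8 in endothelial-like, 4.77 for Vldlr in D2-like and 3.57 for Dab1 in upper-layer ExN-like nuclei. Of 68 neighbouring pairs of classes over the 4 genes, the 5 named above passed the order test. All others are positions that the spread between libraries or their number (as few as 6) leaves undecided.

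The comparison of Het with WT asked whether loss of 1 Myt1l copy moves this pathway in its sources or its targets. Over the 17 classes with enough libraries, 59 of 68 gene and class pairs passed the filter on low counts (Reln in 15 classes, Dab1 in 17, Vldlr in 12, Lrp8 in 15), and edgeR called none (called meaning adjusted p under 0.05 and a log2 difference of at least 0.2). Across all genes 0.0106% of 103963 gene and class pairs were called. The estimates were higher in Het in 31 pairs and lower in 28, and the smallest adjusted p was 0.656. At an unadjusted p under 0.05 there were 5 of 59 pairs, against 5.47% of the pairs of all genes. In 52 of the 59 pairs the 95% interval lay within 1 log2 unit either way, and differences smaller than that are not settled by these libraries.

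In the sources, Reln differed by log2 0.15 (95% interval −0.16 to 0.45) in Cajal-Retzius-like, 0.11 (−0.07 to 0.29) in MGE InhN-like, −0.30 (−0.61 to 0.02) in CGE InhN-like and −0.10 (−0.32 to 0.12) in D1-like nuclei, none called by edgeR (adjusted p 0.846 to 0.959). In olfactory bulb projection neuron-like nuclei it differed by −0.53 (−1.52 to 0.47, edgeR adjusted p = 0.999), and by −0.13 without Het 3. CGE InhN-like WT libraries spanned 764 to 1671 CPM and the Het libraries 1438, 856, 1064 and 996 CPM, which overlap. In the receiving neurons Dab1 differed by 0.07 in both upper-layer (−0.10 to 0.24) and deep-layer ExN-like nuclei (−0.10 to 0.23). With 1 library left out the upper-layer value ran from 0.035 (without WT 4) to 0.12 (without Het 4) and the deep-layer value from 0.0081 (without Het 2) to 0.15 (without Het 4), none called. Lrp8 in endothelial-like nuclei differed by −0.07 (−0.38 to 0.23). Median differences over the tested classes were −0.04 for Reln, 0.0020 for Dab1, 0.07 for Vldlr and 0.01 for Lrp8.

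The 5 pairs with the smallest unadjusted p were in olfactory bulb projection neuron-like (760 nuclei), D2-like (3397), fibroblast/meningeal-like (2573) and endothelial-like nuclei (1233). Vldlr in olfactory bulb projection neuron-like nuclei was at 48.8 ± 25.5 CPM in WT (n = 7) and 85.2 ± 18.1 in Het (n = 4), a log2 difference of 0.91 (SE 0.295, edgeR adjusted p = 0.732). The genotypes overlapped because WT 2, with 16 such nuclei, was at 102 CPM, and the whole class held 110 Vldlr UMIs. Dab1 in D2-like neurons was at 510.5 ± 245 CPM in WT and 311 ± 83.9 in Het (log2 −0.55, SE 0.191, edgeR adjusted p = 0.688). WT 3 at 789 and WT 4 at 998 CPM, the latter from 13 nuclei, were the highest, and the other WT libraries, at 328 to 430.5 CPM, overlapped the Het libraries. At 800 UMIs 15.1% of D2-like nuclei had a Dab1 UMI, below the endothelial-like and microglia-like shares given above. Whether background RNA has a part in this level or in the difference was not tested. The others were Lrp8 in fibroblast/meningeal-like nuclei (log2 0.78), Reln in endothelial-like nuclei (1.12) and Dab1 in olfactory bulb projection neuron-like nuclei (−1.01). At 800 UMIs 2.90% of fibroblast/meningeal-like nuclei had an Lrp8 UMI, below the 5.52% of microglia-like nuclei. For Reln in endothelial-like nuclei the means were 69.0 CPM in WT and 143 CPM in Het, 0.324% of the nuclei held 10 or more Reln UMIs, and 1 nucleus held 73.

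Over all nuclei the differences were log2 0.14 for Reln (SE 0.0925, edgeR adjusted p = 0.629), −0.02 for Dab1 (adjusted 0.966), 0.17 for Vldlr (95% interval 0.0035 to 0.33, adjusted 0.490) and −0.01 for Lrp8 (adjusted 0.957), where edgeR called 0% of 20112 genes, 2003 genes had an unadjusted p under 0.05 and DESeq2 called 41. Vldlr was at 54.9 to 75.2 CPM in WT, median 68.0, and at 70.5, 87.0, 77.2 and 69.7 CPM in the Het libraries. D1-like neurons, whose mean Vldlr was 104 CPM, averaged 7.32% of Het and 4.44% of WT nuclei. Their part in the Vldlr difference was not tested. Over the excitatory nuclei (upper-layer, deep-layer and L6b/subplate ExN-like) the differences were 0.10 for Reln, 0.17 for Dab1 (−0.06 to 0.40, adjusted 0.544), 0.13 for Vldlr and 0.04 for Lrp8, with 0% of 12988 genes called, 1572 at an unadjusted p under 0.05 and 19 called by DESeq2, none of them a member. Dab1 in these nuclei was at 2907 to 3557 CPM in WT and at 4052, 3814, 3777 and 2627 CPM in Het: 3 Het libraries lay above all WT libraries and Het 4 below all of them. Without Het 4 the difference was 0.29, also not called. Upper-layer nuclei made up 15.2% ± 5.87 of Het and 10.2% ± 3.77 of WT nuclei and deep-layer nuclei 5.50% ± 2.84 and 9.55% ± 3.85 (exact permutation p = 0.105 and 0.0929, both adjusted to 0.196), and within each of these classes Dab1 differed by 0.07.

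Cluster by cluster, a division chosen after seeing the data, 142 gene and cluster pairs were tested in 43 clusters. edgeR called none of them, against 0.0195% of 204910 pairs of all genes, and 15, or 10.6%, had an unadjusted p under 0.05, against 5.9% of the pairs of all genes. The smallest adjusted p belonged to Reln in an unnamed cluster led by Tcerg1l, with Fezf2, a gene of subcerebral projection neurons, among its leading genes. There the WT libraries spanned 181 to 225 CPM and the Het libraries were at 243, 338, 258 and 275 CPM, with no overlap, and the log2 difference was 0.51 (SE 0.111, 0.28 to 0.74, edgeR adjusted p = 0.130).

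**Figure D4:**
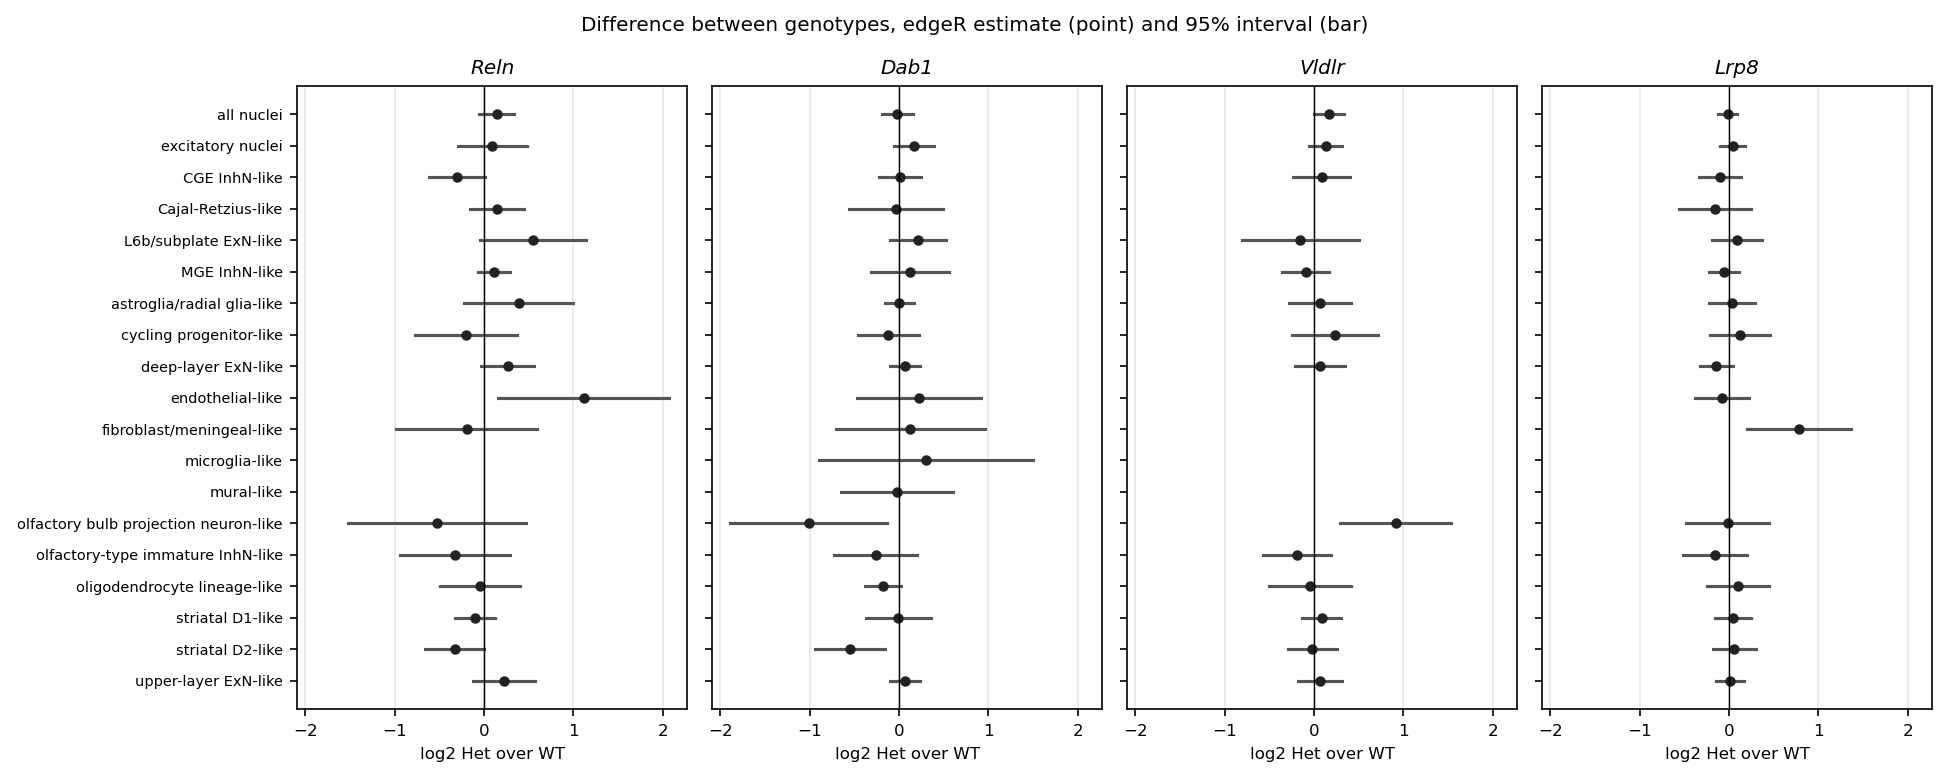
Log2 difference of Het over WT for the 4 genes over all nuclei, over excitatory nuclei and in each class where the gene passed the filter on low counts, as edgeR's estimate (point) with its 95% interval (bar). Most estimates sit near 0, with wide intervals in endothelial-like, microglia-like and olfactory bulb projection neuron-like nuclei, and none was called.

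The rest of the pathway was read through a list of 58 genes in 7 groups, among them proteases and other ligands, receptor partners, kinases and adaptors at DAB1, downstream kinases and cytoskeleton, the LIS1 and CDK5 branch, and DAB1 turnover. Of its 647 gene and class pairs edgeR called none, and 37 (16 with a higher and 21 with a lower level in Het) had an unadjusted p under 0.05, which is 5.72% of them against 5.47% of the pairs of all genes. The median difference of the 56 genes tested over excitatory nuclei was −0.0025 against −0.0039 for all genes, and over all nuclei −0.04 (58 genes) against 0.0003. At an unadjusted p under 0.05, 3 of the 58 genes were higher and 7 lower in Het over all nuclei. Over excitatory nuclei 2 of the 56 were higher and 7 lower. Of all genes tested, 2003 of 20112 over all nuclei and 1572 of 12988 over excitatory nuclei reached that p. Both are smaller shares than those of the list, a difference that was not tested. The 5 pairs with the smallest adjusted p were Yes1, a SRC family kinase, in excitatory nuclei (log2 0.45, SE 0.107, edgeR adjusted p = 0.213), Dab2ip, a DAB1-binding regulator of neuronal migration (−0.31, adjusted 0.223), and Nova2, a splicing factor that acts on Dab1 exons (−0.23, adjusted 0.285), both in the same nuclei, and in L6b/subplate ExN-like nuclei Adamts3, a protease that cleaves Reelin (0.78, SE 0.224, adjusted 0.290), and Nck2, an SH2 adaptor that binds phosphorylated DAB1 (−0.48, adjusted 0.313). With Het 4 left out, edgeR called Adamts3 in L6b/subplate ExN-like nuclei (1.02, adjusted p = 0.0149) and, over excitatory nuclei, Yes1 (0.50, adjusted 0.0285) and Dab2ip (−0.36, adjusted 0.0269). In that setting 0.578% of 4500 genes of L6b/subplate ExN-like nuclei and 3.17% of 13499 genes over excitatory nuclei were called, against none of either in the fit of all 12 libraries. Yes1 and Dab2ip were not called there within upper-layer or deep-layer ExN-like nuclei. Het 4 is the only female Het library. Upper-layer nuclei made up 6.80% of it, against 20.5%, 16.3% and 17.1% of Het 1, 2 and 3. The part of sex or layer makeup in these calls was not tested.

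The genes whose levels followed each member most closely were ranked by Pearson's r of log2(CPM + 1) over 47 clusters, among 13603 genes. These points share libraries and are clusters of the same nuclei, so r is a description. Reln was followed by Gm10475 (r = 0.78), which lies within Reln on the other strand and may share its reads, then by Snhg11 (0.68), Ripor2 (0.67), the nociceptin precursor gene Pnoc (0.65) and Gm37859 (0.65). All 5 had their highest level in the Cajal-Retzius-like cluster. Dab1 was followed by the synaptic adhesion gene Nlgn1 (0.77), Tmem150c (0.74), Mlip (0.71), Gm37792 (0.68) and Fam135b (0.68). For Vldlr they were Morn4 (0.70), Igsf3 (0.64), the muscarinic receptor gene Chrm1 (0.63), Gpr27 (0.62) and the potassium channel gene Kcnk1 (0.62). Their maxima lay in a cluster of 97 nuclei led by Cd24a, where Vldlr itself was also highest. For Lrp8 they were Mcf2l (0.65), the N-cadherin gene Cdh2 (0.64), Gm26930 (0.61), Ly6e (0.60) and Sema7a (0.59). Of these, Mcf2l, Ly6e and Sema7a, were highest in the same cluster, the endothelial-like one.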

How the data were processed

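Nuclei came from flash-frozen P1 forebrain, as the labels and the account of dissection in the study's methods state, though its account of nuclei isolation names prefrontal cortex. Libraries were made with the Scale Biosciences single-cell RNA kit. The deposited matrices hold expected counts: the authors' ScaleRna workflow (genome mm10) counted UMIs per gene and nucleus and divided some between genes (6.58 to 6.88% of entries were not whole). The labels also name Seurat 4.3.0. Whole counts had been assumed in the plan, so sums per library were rounded before testing.

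Nuclei were kept with 800 to 6000 UMIs, with 300 to 3000 genes detected, with mitochondrial UMIs at or below 1% and log10 genes over log10 UMIs of at least 0.9 (98111 of 126684 barcodes). By simulated doublet score, the top 5% of barcodes, 6329 of the 126684, were flagged as likely doublets. Dropping the flagged barcodes from the 98111 took out 3465 nuclei. Clustering used Leiden at resolution 1.5 on 50 components of 3000 genes, without the 4 members, Myt1l, sex-linked and mitochondrial genes (Python 3.11.15, igraph 0.11.9, leidenalg 0.10.2). Clusters were named "-like" from marker lists. The thresholds of the naming (a mean score of 1.0, 3 markers raised, a lead of 0.2) were chosen with the clusters in view, and classes rebuilt in this way may differ from those of the study. Genotypes were compared with edgeR 4.0.16 (R 4.3.3; quasi-likelihood test, TMM, low-count filter, Benjamini-Hochberg over all genes of a class), tested on simulated data, in classes with at least 3 libraries of each genotype. Single values were compared by two-sided exact permutation tests over 8 against 4 libraries (smallest p 0.0020), and neighbouring classes by exact sign-flip tests within libraries on log2(CPM + 5). The study drew its mice from several litters, generally as littermates, but no source used here ties a mouse to a litter, so no litter term was fitted.

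The named genes were the 4 members, Myt1l, the 5 pathway pairs with the smallest adjusted p, and the 5 best correlated genes per member among those reaching 20 CPM. Other genes appear only as leading genes of clusters or overlapping genes, and adjusted p-values of 3 pathway pairs that changed with the processing were added after their values were seen. The members and lists were chosen with earlier results of these data known. Of 55335 gene IDs, 54587 matched GENCODE M21. Alternatives were DESeq2 1.42.0, no low-count filter, males only, a replicate block, other resolutions, no doublet removal and leaving out each library.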

Additional observations from a re-analysis of the deposited data

Results flagged for a closer look

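Of 46 groups of libraries examined for a single far-off library, 4 values stood apart by Dixon's test, where chance alone gives about 1 in 20. Reln in Cajal-Retzius-like nuclei was lowest in WT 8, at 10296 CPM with the next WT library at 15518 CPM. The share of Reln UMIs in MGE InhN-like nuclei was highest in WT 4, at 28.3% with the next at 17.8%, and this library also had the fewest striatal D1-like nuclei, 24. Among the Het libraries the same share was highest in Het 2, at 14.0% with the next at 12.4%. The share of nuclei that were Cajal-Retzius-like was lowest in Het 2, at 0.590% with the next at 0.993%.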

How the results depend on the processing

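Of 717 recomputed values of 44 results, 683 kept their direction and their side of the threshold or stayed within the spread. A further 24 changed sign while not called, 6 moved and 4 passed the threshold. Among those 4, the Cajal-Retzius-like share of nuclei without Het 2 passed on its unadjusted p only (exact permutation p = 0.0182, adjusted 0.136). The causes were not tested. Dab1 in upper-layer ExN-like nuclei was 4388 CPM as a mean of per-nucleus values against 4019. Without the low-count filter edgeR called 2 member pairs, Reln in endothelial-like (log2 1.19, adjusted p = 0.0012, with 0.0604% of genes called) and microglia-like nuclei (1.89, adjusted p = 0.0107, 0.074%). In microglia-like nuclei Het 4 (19 nuclei) was at 1963 CPM of Reln. Het 1, 2 and 3 were at 60.1, 172 and 46.1 CPM, against a WT mean of 142 CPM. Without the filter edgeR also called 2 pathway pairs within classes, Adamts3 in L6b/subplate ExN-like (0.79, adjusted p = 0.0145, 0.136%) and Dcx in astroglia/radial glia-like nuclei (0.61, adjusted p = 0.0011, 0.418%), and Yes1 over excitatory nuclei (0.47, adjusted p = 0.0435, 0.321%). With males only edgeR called 1 pathway pair, Adamts3 in L6b/subplate ExN-like nuclei (1.03, adjusted p = 0.0285, 0.52%). DESeq2 called Socs7 over all nuclei (−0.23, adjusted p = 0.0496, 0.204%).

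The labels number the mice within each sex, so the replicate block keeps WT 1, 2, 3 and 6 with Het 1, 2, 3 and 4 and drops WT 4, 5, 7 and 8. With it edgeR called 1 member pair, Dab1 in MGE InhN-like nuclei (log2 0.56, adjusted p = 0.0111), where 0.161% of genes were called. WT 4, 5 and 7, which it drops, had the highest Dab1 of WT in this class, at 777, 740.2 and 613 CPM. The WT libraries it keeps were at 254 to 452 CPM. Over all 12 libraries WT was at 481 ± 204 and Het at 531 ± 110 CPM (exact permutation p = 0.653). At 800 UMIs 18.4% of these nuclei held a Dab1 UMI, and 17.8% of endothelial-like nuclei did. Whether background RNA has a part in this level was not tested. The block turned the sign of Dab1 over all nuclei (0.017), of Reln (−0.034) and Lrp8 (−0.014) over excitatory nuclei and of Dab1 in upper-layer ExN-like nuclei (−0.022). The labels do not say that these numbers pair the libraries. Correlations of the libraries' deviations were −0.098, 0.123 and 0.271 for the first 3 pairs and 0.611 for WT 6 with Het 4. Of the 4 Het libraries only Het 4 correlated best with its own partner. These correlations cannot settle whether mice were matched.

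Sign changes elsewhere were Lrp8 over all nuclei (0.0052) and Reln over excitatory nuclei (−0.058) with males only, Lrp8 in endothelial-like nuclei with males only (0.070) or no filter (0.027), Reln at resolution 2.5 in Cajal-Retzius-like (−0.00084) and olfactory bulb projection neuron-like nuclei (0.083), and, without thinning, the share of nuclei with Reln in CGE InhN-like (0.0538 percentage points) and with Lrp8 in upper-layer ExN-like nuclei (−1.26).

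Leaving out each library in turn gave these ranges of Het minus WT. In percentage points of Reln UMIs they were 0.052 to 7.34 for Cajal-Retzius-like, −4.81 to −2.79 for MGE InhN-like (past the threshold without WT 4) and −0.960 to 5.95 for all other nuclei. In percentage points of nuclei they were 0.0577 to 0.211 for the Cajal-Retzius-like share (past it without Het 2 on its unadjusted p only), −1.21 to 0.510 for nuclei with Reln in CGE InhN-like, −0.895 to 0.168 with Vldlr in L6b/subplate ExN-like and −0.115 to 0.622 with Lrp8 in upper-layer ExN-like. The log2 receptor ratio over all nuclei ran from 0.129 to 0.247 (past it without WT 8 or Het 1). The log2 differences ran from −0.086 to 0.041 for Dab1 and −0.043 to 0.014 for Lrp8 over all nuclei, and from −0.030 to 0.22 for Reln and −0.0094 to 0.083 for Lrp8 over excitatory nuclei. They ran from 0.10 to 0.29 for Dab1 over excitatory and 0.064 to 0.20 for Reln in Cajal-Retzius-like nuclei. Pathway gene and class pairs called numbered 0 to 1, and member pairs 0 throughout. Taking all 15 clusters high in Neurod2 and Neurod6 as excitatory, chosen after seeing the data, gave 0.16 for Dab1 and 0.21 for Vldlr, not called. Classes with few nuclei and low Vldlr counts limit what could be detected.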
